A study of Homo sapiens with 4 samples.

Results

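The genes described here encode collagens and laminins of the basement membrane and its linker nidogen. They are COL4A1, COL4A2, LAMA3, LAMA5, LAMB1, LAMB2, LAMB3, LAMC1 and NID1, which make 9 of the 53826 entities measured. Their rows were taken by gene symbol from all 4 libraries. The set was selected on the stable difference of COL4A2, which was over 2-fold higher in stable SPRR1A than in stable DsRed cells, and the question it addresses is whether its partner COL4A1 follows. The stable values of COL4A2 therefore describe how the set was chosen and support nothing by themselves. The rule of choice did not use the transient model, but the members were listed with earlier results of these data known.

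All 4 libraries came from PK-1, a human line derived from a pancreatic ductal adenocarcinoma (PDAC) of the well-differentiated kind. Stable SPRR1A cells carried FLAG-tagged SPRR1A, a small proline-rich protein of the cornified envelope of squamous epithelium, delivered by the retroviral vector pMXs, and stable DsRed cells carried a red fluorescent protein in the same vector. Transient SPRR1A cells received the tagged gene on the plasmid pCAG and transient GFP cells received green fluorescent protein on it, and their RNA was taken 48 h later. Each condition had 1 library, so the differences could not be checked against replicates and p-values are not given. The models differ in vector, delivery and control protein at once, and these cannot be told apart in a comparison between models. Whether the stable cells were a clone or a pool was not given in the sources used here. SPRR1A stood at 10.93 and 16.60 log2 TPM in the stable and transient SPRR1A libraries and at 0.75 and 3.56 in the DsRed and GFP libraries, as their labels say. TPM is a read share per transcript length, scaled to 1000000 per library, and the deposited log2 values end at a floor of 0, the log2 of a TPM of 1. Depth in reads is unknown. All 79 genes of cytoplasmic ribosomal proteins that were looked up by name were above 0 in the 4 libraries. A difference is given as SPRR1A minus its own control on the log2 scale, and past 2-fold means above 1 or below -1. Where 4 values of a gene follow each other, they are the log2 TPM of stable SPRR1A, of its DsRed control, of transient SPRR1A and of its GFP control. Over the 9658 entities that reached a TPM of 5 in every library, the median difference was 0.06 for the stable and -0.18 for the transient model, so a value near those medians is no departure from the bulk of entities.

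The basement membrane is the thin sheet of matrix under every epithelium. Laminins are crosses of an α, a β and a γ chain that assemble at the cell surface, type IV collagens are triple helices of α chains that join into a second network, and nidogens link the networks. In carcinomas of the pancreas this sheet separates the ductal cells from the stroma, and its loss accompanies invasion. COL4A1 and COL4A2 encode the α1 and α2 chains of the commonest type IV collagen, and a secreted molecule needs both. LAMA3 and LAMB3 encode chains of the laminin that anchors epithelia through hemidesmosomes. LAMA5, LAMB1 or LAMB2, and LAMC1 make laminins found under most epithelia.

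COL4A1 and COL4A2 lie head to head on chromosome 13. In RefSeq (GRCh38.p14) COL4A1 runs from 110148963 to 110307157 on the minus strand and COL4A2 from 110307284 to 110513209 on the plus strand, so that 126 bases lie between their starts. Their MANE transcripts, the reference isoforms, have 52 exons and 6540 nt, and 48 exons and 6446 nt. The stretch between the genes is shown because it is upstream of both at once, and the sequences before NID2 and NID1 are shown because the values of these nidogen genes part below. The last 26 bases of the interval and the 19 bases nearest to NID1 are left out, since they lie in exons of other transcripts in GENCODE. Capitals mark CCAAT and GGGCGG boxes, read on either strand as CCAAT or ATTGG and as GGGCGG or CCGCCC, and where capitals run on, 2 boxes overlap. The positions are chr13:110307158-110307257 on the plus strand for the interval, chr14:52069060-52069309 on the minus strand for NID2 and chr1:236065110-236065340 on the minus strand for NID1, and none of the 3 overlaps an exon in GENCODE.
COL4A1-COL4A2 interval: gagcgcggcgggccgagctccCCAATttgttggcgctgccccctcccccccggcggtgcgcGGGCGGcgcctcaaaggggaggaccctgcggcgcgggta
NID2 upstream: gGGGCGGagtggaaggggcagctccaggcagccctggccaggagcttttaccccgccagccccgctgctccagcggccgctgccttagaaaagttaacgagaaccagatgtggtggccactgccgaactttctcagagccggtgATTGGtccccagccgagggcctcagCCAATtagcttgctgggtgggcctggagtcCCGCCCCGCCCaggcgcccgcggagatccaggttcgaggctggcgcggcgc
NID1 upstream: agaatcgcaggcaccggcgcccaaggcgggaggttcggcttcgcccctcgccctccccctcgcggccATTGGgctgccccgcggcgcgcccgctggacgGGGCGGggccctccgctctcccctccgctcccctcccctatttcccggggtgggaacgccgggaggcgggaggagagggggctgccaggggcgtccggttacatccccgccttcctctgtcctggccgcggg

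The interval held 1 CCAAT box and 1 GGGCGG box and had 78% G and C. Such boxes are common. Of 35116 RefSeq promoters, 18.1% held a CCAAT box and 31.3% a GGGCGG box in the 100 bases before the start. The NID2 stretch held 2 CCAAT and 3 GGGCGG boxes in 250 bases, where 32.0% and 42.6% of promoters hold at least 1. The NID1 stretch held 1 of each in 231 bases, against 30.6% and 41.8%. The letters TATAAA, on either strand, were found in none of the 3 stretches, and 4.99%, 9.95% and 10.7% of promoters hold them in 100, 231 and 250 bases. A match of letters is a description and does not show that a factor binds.

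COL4A1 and COL4A2 were lower in the stable DsRed library than in any other. COL4A2 stood at 4.05 log2 TPM with stable SPRR1A and 2.63 with its DsRed control, and at 3.98 with transient SPRR1A and 4.10 with its GFP control. Its partner COL4A1 stood at 2.31, 0.997, 2.005 and 2.41 in the same order. For both genes 1 library, stable DsRed, was low and the other 3 lay close together, within 0.13 for COL4A2 and 0.41 for COL4A1. The stable difference was 1.42 for COL4A2, a 2.67-fold higher TPM in SPRR1A cells, and 1.31 for COL4A1, a 2.48-fold higher TPM. COL4A1 thus followed its partner past the 2-fold threshold, from a lower level.

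Of the 8 genes of the set that were above 0, COL4A1 and COL4A2 were past 2-fold in the stable model, COL4A2 by the choice of the set. Of all 53826 entities, 0.13% were over 2-fold higher in stable SPRR1A cells, and of the 12739 above 0 in both stable libraries, 0.361% were. Counting either direction, 0.628% of the 12739 were past 2-fold. Ordered by that difference, COL4A1 was the 19th of these 12739, and the place of COL4A2 follows from the choice of the set. Low genes spread more widely, which bears on COL4A1. Among 2884 entities of a similar level to COL4A1 in the stable libraries, 38 were over 2-fold higher and 14 were at least as far up as it was. Around the level of COL4A2, 3 of 4094 other entities were over 2-fold higher, which describes the spread at that level and not COL4A2. COL4A1 also lost its place past the threshold when 1 was added to each TPM before the logarithm, with a difference of 0.99, whereas COL4A2 kept it with 1.29. Of the members, the next below COL4A1 was LAMA3 with 0.17, so none lay just under the threshold.

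**Figure D1:**
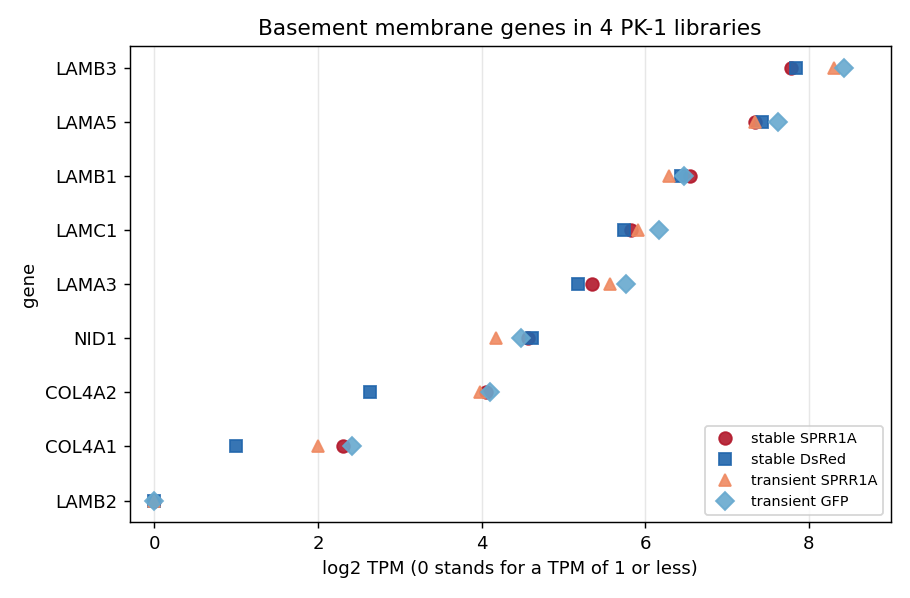
Log2 TPM of the 9 genes in each of the 4 PK-1 libraries, 1 point per library, with genes ordered by mean level and 0 as the floor. Stable DsRed lies apart on the low side for COL4A1 (0.997) and COL4A2 (2.63), while the points of each laminin gene lie within 0.65 of each other.

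In the transient model COL4A2 and COL4A1 lay within 2-fold of their control. The log2 difference was -0.13 for COL4A2 and -0.41 for COL4A1, against a median of -0.18 for the 9658 entities. COL4A1 lay toward the low end, since 7.58% of the entities above 0 in both transient libraries had a lower difference, against 68.9% for COL4A2. The sign of the COL4A2 value rested on the scaling, since it was 0.05 when centred on the median of all entities and 0.02 when SPRR1A was taken out of the TPM total. COL4A1 stayed lower under these scalings, with -0.23 and -0.26. Of the 8 genes above 0, 0 were past 2-fold in the transient model in either direction, where 0.227% of all entities and 0.466% of the 13092 above 0 in both libraries were. The stable and transient differences of COL4A1 and COL4A2 were thus unlike. For COL4A2 the gap includes the stable value on which the set was chosen, and such a choice by itself favours a gap. With 1 library per condition the gap between the models was not tested.

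The levels were then compared across models. Transient GFP cells were higher than stable DsRed cells by 1.47 for COL4A2 and 1.42 for COL4A1. SPRR1A itself was also higher in GFP than in DsRed cells, at 3.56 against 0.75, and its part in these differences was not tested. This comparison shares the DsRed library with the stable one, so the values are not separate evidence of a low DsRed level. In it 6.1% of the 12761 entities above 0 in both controls were over 2-fold higher in GFP cells, a background far above that within a model. The SPRR1A libraries differed from each other by -0.07 for COL4A2 and -0.30 for COL4A1 (transient minus stable), and 0 of the 8 genes were past 2-fold there, where 2.97% of entities were. The difference of stable SPRR1A minus transient GFP cells, which does not involve the DsRed library, was -0.05 for COL4A2 and -0.11 for COL4A1.

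To show how common such a profile was, each library was compared with all others at once. Of the 12542 entities above 0 in all 4 libraries, 23 were over 2-fold lower in stable DsRed than in each other library, which is 0.183%, and COL4A1 and COL4A2 were among them, COL4A1 barely so, with a gap of 1.01. The same count was 13 for stable SPRR1A, 5 for transient SPRR1A and 1 for transient GFP as the low library. In the direction of a single high library it was 2 for stable DsRed and 4, 1 and 12 for the others in that order. Of the 23 entities, 6 had the other 3 libraries within 0.5 of each other, and the range of 0.13 for COL4A2 was the narrowest of the 23. SPRR1A itself and several small RNAs were also among the 23, and only 2, COL4A2 being 1 of them, reached a TPM of 5 in every library. That COL4A2 lay over 2-fold below stable SPRR1A in DsRed cells follows from the choice of the set.

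**Figure D2:**
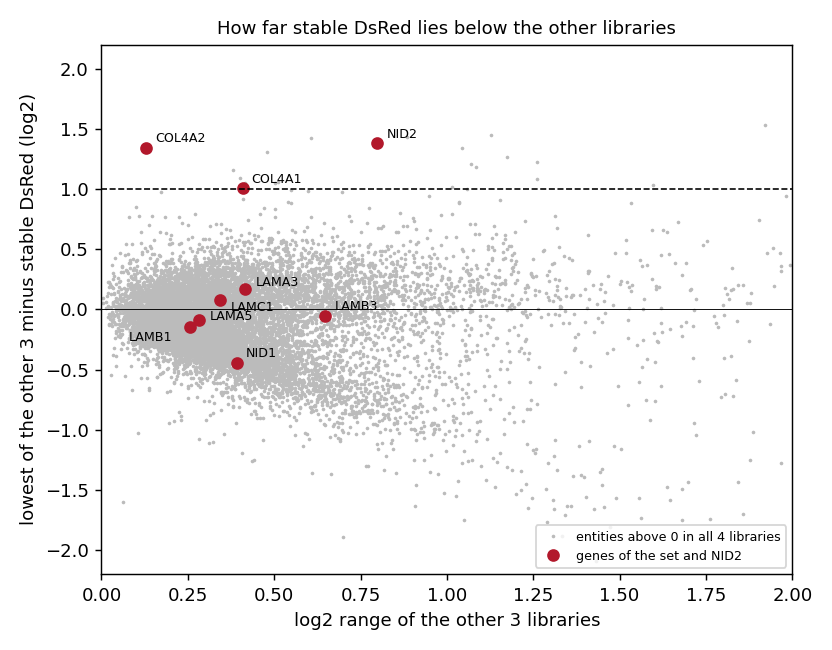
Each point is 1 of the 12542 entities above 0 in all 4 libraries, with the log2 range of the 3 libraries other than stable DsRed on the x axis and the lowest of these 3 minus stable DsRed on the y axis (log2), and 46 entities lie outside the axes. COL4A2 (0.13 and 1.34) lies at the upper left above the dashed 2-fold line, COL4A1 lies on the line at 1.01, NID2 lies above it at 1.38, and the laminin genes and NID1 lie at or below 0.17.

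The ratio of α2 to α1 chain TPM moved less than the levels. COL4A2 was 3.35 times COL4A1 with stable SPRR1A and 3.10 times with DsRed, and 3.92 times with transient SPRR1A and 3.23 times with GFP, so the ratio in the low library was close to that in GFP cells. The other type IV collagen pair above 0, COL4A5 and COL4A6, which is also head to head and encodes the α5 and α6 chains, did not share the profile. COL4A5 stood at 4.89, 4.82, 4.98 and 5.28, with stable and transient differences of 0.07 and -0.30. COL4A6 stood at 4.99, 5.08, 5.14 and 5.34, with -0.09 and -0.20. COL4A3 and COL4A4, chains found in the kidney glomerulus, were listed at 0 in all 4 libraries.

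Laminin genes were the most abundant of the set and lay within 2-fold of their controls. LAMB3, the β3 chain, was the highest member in every library, with 7.79, 7.84, 8.30 and 8.44 log2 TPM. Its partner LAMA3, the α3 chain, stood at 5.35, 5.18, 5.57 and 5.77. The stable differences of LAMB3 and LAMA3 were -0.05 and 0.17, and the transient ones -0.13 and -0.20. Both chains were lower in the stable than in the transient libraries of the same kind, and GFP exceeded DsRed by 0.60 and 0.59. The TPM of LAMB3 ranged from 5.42 to 6.67 times that of LAMA3.

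The chains of the more widespread laminins differed less. LAMA5, the α5 chain, stood at 7.34, 7.43, 7.35 and 7.62 log2 TPM, with a stable difference of -0.09 and a transient one of -0.28. LAMB1, the β1 chain, stood at 6.55, 6.43, 6.29 and 6.48, with 0.11 and -0.19. LAMC1, the γ1 chain, stood at 5.82, 5.74, 5.92 and 6.17, with 0.08 and -0.25. None of these genes had its lowest value in stable DsRed by more than 0.08. LAMB1 was 1.65 and 1.61 times LAMC1 by TPM in the stable libraries and 1.29 and 1.24 times in the transient ones. This ratio, though not LAMB1 itself, was higher in both stable than in both transient libraries. LAMB2, the β2 chain, was listed at 0 in all 4 libraries, and no difference can be given for it. Whether this 0 reflects a low level or the way reads were assigned to genes was not tested.

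**Figure D3:**
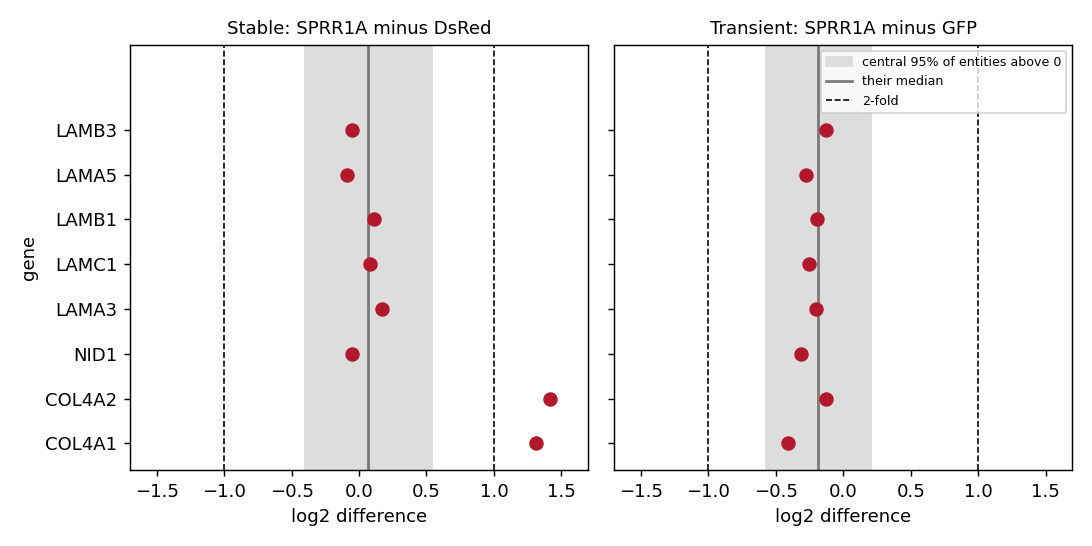
Log2 difference of the 8 genes above 0 in the stable (left) and transient (right) model, with 1 library per condition and so no error bars. The grey band is the central 95% of entities above 0 in both libraries (-0.40 to 0.54 stable, -0.58 to 0.21 transient), the solid line is their median and dashed lines mark 2-fold, and only COL4A1 and COL4A2 in the stable model lie outside the band.

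The nidogens parted. NID1, the linker of the set, stood at 4.56, 4.61, 4.17 and 4.49 log2 TPM, with differences of -0.05 and -0.32. Its relative NID2 is not of the set. It stood at 1.46, 0.08, 1.84 and 2.26, with stable DsRed as the low library, and its differences were 1.38 and -0.42. NID2 was named for being past 2-fold in the stable model, which already places DsRed below stable SPRR1A. The value of NID2 in DsRed cells lay next to the floor, and with 1 added to each TPM its stable difference was 0.87, no longer past the threshold. NID1 thus exceeded NID2 23.2-fold by TPM in stable DsRed cells and between 4.67- and 8.57-fold in the other libraries.

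The order of the levels was the same in all 4 libraries. From high to low it was LAMB3, LAMA5, LAMB1, LAMC1, LAMA3, NID1, COL4A2 and COL4A1, with LAMB2 at the floor. Since no condition has replicates, whether neighbours in this order differ beyond their spread cannot be said. The gap between NID1 and COL4A2 was 0.20 in transient SPRR1A cells, the narrowest for that pair, and 1.98 in stable DsRed cells, the widest. The summed TPM of the set was 619.2 with stable SPRR1A and 610.5 with DsRed, and 702.6 with transient SPRR1A and 803.9 with GFP, most of it laminin. Over the 8 genes the median difference was 0.10 (stable) and -0.23 (transient), beside 0.06 and -0.18 over the 9658 entities. The 6 laminin and nidogen genes alone gave 0.01 and -0.23. All 8 had a transient difference below 0, as had most entities, of which 5.23% were higher. COL4A2 and LAMB3 changed sign under both other scalings, each to 0.05 when centred and 0.02 when SPRR1A was taken out of the total.

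Other basement membrane components, a list of 25 genes chosen for this report, gave 13 above 0. In the stable model 8 were higher and 5 lower, with a median of 0.07, and NID2 was past 2-fold. In the transient model 13 were lower, with a median of -0.25, and 0 were past 2-fold. The most abundant were TINAGL1, a matrix glycoprotein that binds integrins (9.22, 9.08, 9.47 and 9.64 log2 TPM), AGRN, the heparan sulfate proteoglycan agrin (7.34, 7.41, 7.22 and 7.50), and COL17A1, the transmembrane collagen of hemidesmosomes (7.31, 7.40, 8.002 and 8.13). Their stable differences were 0.15, -0.07 and -0.09. COL17A1, like the α3 and β3 laminin chains, was higher in both transient libraries than in both stable ones.

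Genes for the folding, modification and export of collagen lay within 2-fold of their controls. Of 22 genes, 18 were above 0. In the stable model 15 were higher and 3 lower with a median of 0.09, in the transient model 1 was higher and 17 lower with a median of -0.18, and 0 were past 2-fold in either. PPIB, a prolyl isomerase of the endoplasmic reticulum, stood at 10.44, 10.36, 10.36 and 10.47 log2 TPM. P4HB, the β subunit of prolyl 4-hydroxylase, stood at 10.01, 10.03, 10.06 and 10.19, and the chaperone HSP90B1 at 9.72, 9.53, 9.85 and 10.03. The largest stable difference of the list was 0.82, for the crosslinking enzyme LOXL4, the nearest of the listed genes under the threshold. It stood at 1.72, 0.90, 1.63 and 1.52, with stable DsRed lowest. Picking a gene for a large stable difference by itself places DsRed below stable SPRR1A. LOXL4 was named after its values were seen.

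Receptors of type IV collagen and laminin were abundant and lay within 2-fold. Of 14 genes, 13 were above 0 in some library and 12 in a stable one. The stable counts were 8 higher and 4 lower with a median of 0.09, the transient ones 13 lower with a median of -0.23. ITGB1, the β1 integrin chain, stood at 9.52, 9.29, 9.37 and 9.66 log2 TPM. ITGA3, the α3 integrin chain of a laminin receptor, stood at 8.98, 9.03, 8.65 and 8.86, and the proteoglycan SDC1 at 8.85, 8.92, 8.66 and 8.88. ITGA1, the α1 chain of a receptor that binds type IV collagen, had the largest stable difference, 0.57, with 2.97, 2.40, 2.98 and 3.36, and was named after its values were seen. Stable DsRed was its lowest library, and the choice by stable difference already places DsRed below stable SPRR1A.

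Among 12 proteases and inhibitors that act on the basement membrane, 11 were above 0. The stable counts were 5 higher and 6 lower with a median of -0.01, the transient ones 1 higher and 9 lower with a median of -0.18. MMP7, a metalloprotease of glandular epithelium, was listed at 1.17 in stable DsRed cells and at 0 in the other 3 libraries, so it ran opposite to the collagens. Its difference of -1.17 rests on the floor and was -0.70 with 1 added to each TPM. PLAU, the urokinase, stood at 8.26, 8.22, 8.75 and 8.84, TIMP1, an inhibitor of metalloproteases, at 7.72, 7.85, 7.78 and 7.93, and the cathepsin CTSL at 7.25, 7.29, 8.01 and 8.15. Their stable differences were 0.04, -0.13 and -0.04.

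**Figure D4:**
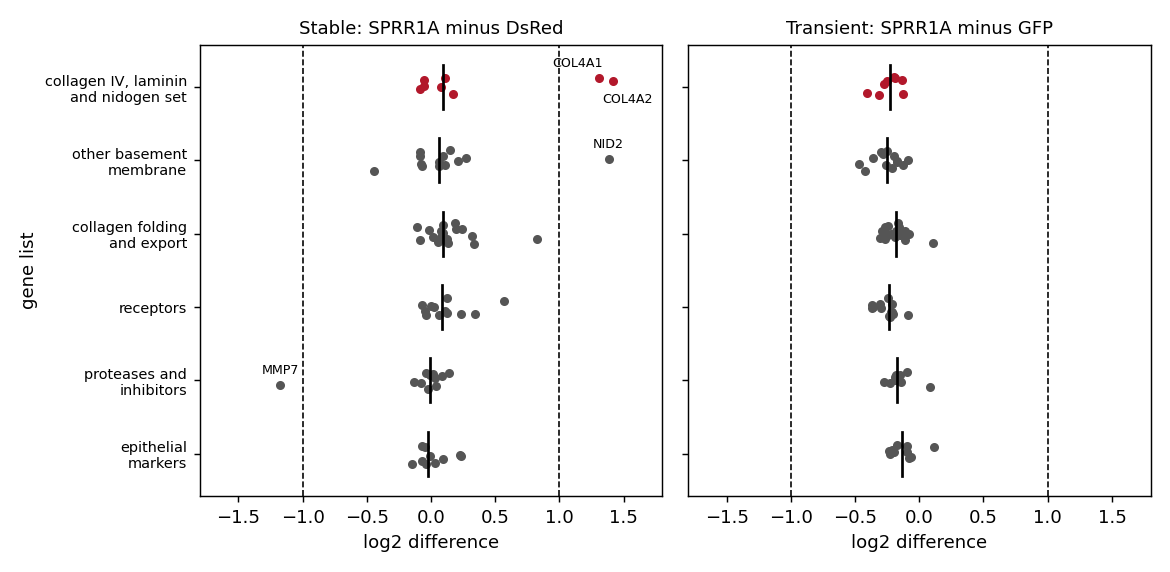
Log2 difference by gene list, for genes above 0 in either library of the comparison, in the stable (left) and transient (right) model, with a black bar at each list's median and dashed lines at 2-fold, for 6 lists and without the fibroblast and endothelial markers, of which most were at 0. Stable medians of these lists lie between -0.02 and 0.10 and transient ones between -0.25 and -0.14, and the named points past 2-fold are COL4A1, COL4A2, NID2 and MMP7.

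Markers of other cell types were looked up because type IV collagen is also made by fibroblasts and endothelium. All 4 libraries came from cultures of PK-1, and no other cell type was part of the design. Fewer cells that express a gene and less RNA per cell cannot be told apart in such bulk samples. Of 14 fibroblast markers 12 were listed at 0 in all 4 libraries, COL1A2, COL3A1, DCN, LUM and PDGFRB among them. COL1A1, the α1 chain of type I collagen, stood at 2.26, 1.96, 2.13 and 2.62 log2 TPM and ACTA2, smooth muscle actin, at 1.24, 0.56, 1.31 and 1.05. Both were low genes and lowest in stable DsRed, and the summed TPM of the list was 5.36 there and between 6.86 and 8.21 elsewhere. Of 8 endothelial markers 7 were listed at 0, with PECAM1, VWF and CDH5 among them. ENG went the other way, with 5.69, 5.75, 4.92 and 5.14, and was highest in stable DsRed. All 10 epithelial markers were above 0. KRT18, KRT7 and KRT8, keratins of simple epithelium, stood between 12.20 and 12.94, and the median stable difference of the list was -0.02.

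Transcript length moved with the difference in both models and between the controls. Of the 9658 entities, 91.4% had a known transcript length. Their median stable difference was -0.02 for transcripts up to 2000 nt, 0.07 up to 5000 nt and 0.13 above 5000 nt. In the same classes the transient medians fell, at -0.14, -0.18 and -0.23, and those of GFP minus DsRed rose, at -0.06, 0.15 and 0.27. COL4A1 and COL4A2 have transcripts of over 5000 nt, and the part of length in their values was not tested. COL4A1 was below the TPM minimum and so is not among the 9658. LAMA5 (11426 nt), LAMA3 (10651 nt), LAMC1 (7929 nt), NID1 (5792 nt) and LAMB1 (5650 nt) are of that length too and gave -0.09, 0.17, 0.08, -0.05 and 0.11.

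The genes around the collagen pair were examined next. RefSeq lists 53 other genes within 1 Mb of COL4A1 or COL4A2, of which 42 were found in the tables and 31 were listed at 0, including the antisense genes COL4A2-AS1 and COL4A2-AS2. Of the 11 above 0 in some library, 0 were past 2-fold in either model. The 9 with a mean TPM of at least 5 were IRS2, RAB20, NAXD, CARS2, ING1, PRECSIT, ANKRD10, LINC00431 and ARHGEF7. Their stable differences ran from -0.20 (ANKRD10) to 0.37 (LINC00431), below those of COL4A1 and COL4A2, and the transient ones from -0.41 to 0.10.

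**Figure D5:**
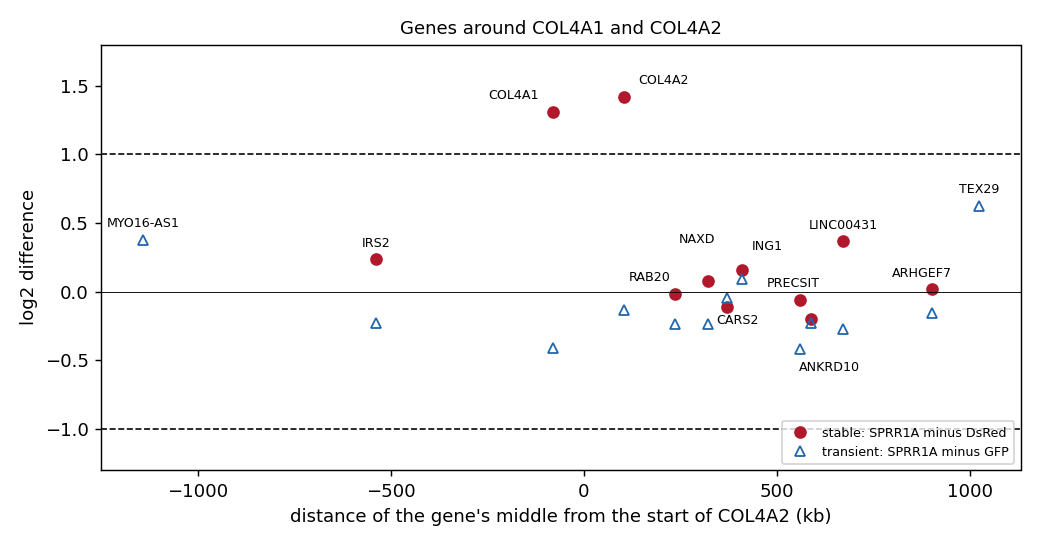
Log2 difference of COL4A1, COL4A2 and the 11 genes within 1 Mb that were above 0, against the distance of each gene's middle from the start of COL4A2 (kb), as filled circles for the stable and open triangles for the transient model. A symbol is left out where both libraries of a model were listed at 0. In the stable model the collagen pair (1.31 and 1.42) lies above the dashed 2-fold line and its neighbours lie between -0.20 and 0.37.

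The entities with the most similar profiles were found by the Euclidean distance between log2 TPM values over the 4 libraries, each centred on its own mean. Of the entities that reached a TPM of 5 in every library, the nearest to COL4A2 were LINC01873, KNL1, a kinetochore protein, ARHGAP11B, LCP1, an actin-bundling protein, and EGFR, the epidermal growth factor receptor, at distances from 0.52 to 0.57. COL4A1, which is too low to pass that filter, lay nearer than all of these 9657 entities, at 0.26. From COL4A1, COL4A2 was the nearest, followed by LINC01873, CSRP2, KNL1 and EGFR. When all 12540 entities above 0 in the 4 libraries were admitted, COL4A1 and COL4A2 were each the 3rd in the order of the other. LCP1 stood at 6.29, 4.86, 6.75 and 6.90 log2 TPM, and EGFR at 5.77, 5.12, 5.92 and 6.28. Stable DsRed was lowest in both, which their choice for a profile like that of the collagens favours. NID2 was only the 72nd from COL4A2 and the 609th from COL4A1 in the wider order. A distance over 4 libraries, in which stable DsRed has the greatest weight for these genes, is a description. Within the set, LAMA3 and LAMC1 were nearest to each other (0.16), as were LAMB1 and NID1 (0.21), LAMA5 was nearest to LAMC1 and LAMB3 to LAMA3.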

How the data were processed

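Total RNA was treated with DNase and sequenced as stranded mRNA libraries in paired-end mode. The authors aligned the reads to hg38 with Strand NGS at default settings and deposited a log2 TPM value per entity and library. The version and annotation release are not given in the sources used here. Values were used as deposited, with no pseudocount and a floor at 0. TPM was recomputed as a power of 2 from values above 0, and no count test applies.

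Differences were called past 2-fold (log2 beyond 1 or -1), the rule of the study. The members and lists were chosen with earlier results of these data known. Named genes are the members, SPRR1A, up to 3 genes of highest mean TPM per list, every listed gene past 2-fold in a model, neighbours with a mean TPM of at least 5, and nearest profiles. Others are marked as named after their values were seen, and COL4A3 to COL4A6 and the markers at 0 also fall outside that rule. RefSeq (GRCh38.p14) gave positions and sequences, GENCODE 44 exons. A similar level means a mean stable TPM within 2-fold of the gene's own. Alternatives were log2(TPM + 1), log2(TPM + 0.1), centring on the median difference of entities reaching a TPM of 5 in the compared libraries, taking SPRR1A or small RNAs out of the total, and a minimum TPM of 5. Some items are not reported here. The 2-fold call alone was run on simulated data whose set changes had to clear the threshold, which checks the code and not the results. Calculations used Python 3.11.15, numpy 2.4.6, pandas 2.3.3 and matplotlib 3.10.9.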

Additional observations from a re-analysis of the deposited data

Results flagged for a closer look

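For 3 basement membrane genes that were past 2-fold in the stable model the stable and transient differences from the control had opposite signs. With 1 library per condition this gap was not tested. Taking genes for a high stable difference, as here and in the choice of the set, by itself favours a gap. The stable minus the transient log2 difference was 1.72 for COL4A1 (1.31 and -0.41), 1.55 for COL4A2 (1.42 and -0.13) and 1.81 for NID2 (1.38 and -0.42). The sign of the transient value of COL4A2 turned to 0.05 when centred and to 0.02 when SPRR1A was taken out of the TPM total, whereas COL4A1 and NID2 stayed below 0. Opposite signs in the models were shown by 5 of the 8 genes above 0, beside 64.1% of the 12542 entities above 0 in all 4 libraries, so that share is near the background.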

How the results depend on the processing

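No paired analysis was possible because there is 1 library for every condition, and no replicate could be left out. The stable difference of COL4A2 stayed past 2-fold under the 5 other scales and totals. That of COL4A1 was 0.99 under log2(TPM + 1), which shrinks low values by construction, and 1 member was then past 2-fold in the stable model in place of 2. A minimum TPM of 5 also left 1 member, COL4A2, past 2-fold in the stable model and 1 between the controls, since the filter removes COL4A1. Centring and leaving SPRR1A out of the total shift all transient differences alike. They gave -0.23 and -0.26 for COL4A1, 0.053 and 0.021 for COL4A2, and -0.043 and -0.075 for the median of the 8 genes. The median of the 8 genes in the stable model was 0.036 when centred, against 0.096. No other setting took a member across the 2-fold threshold in the stable or the transient model. Depth in reads is unknown, and differences within the floor cannot be read.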
